A study of Homo sapiens with 14 samples.

Results

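AHNAK, AHNAK2, S100A10 and ANXA2 were followed across the 6 groups of an experiment on the transcription factors E2F1 and FOXO. All probe sets annotated to these 4 genes were taken. They numbered 8 of the 22215 probe sets of the array that are not controls, and all 8 lay above the filter on dim signals. AHNAK had 2 probe sets, AHNAK2 and S100A10 had 1 each, and ANXA2 had 3. The remaining probe set was paired with both SNU13 and ANXA2, and its signal cannot be assigned to either. The genes were chosen by their names with earlier results of these data known, among them the low AHNAK2 signal of knockdown cells with OHT, and which further values were used is not recorded. Values of that comparison, and of the interaction that contains it, are therefore given without a test.

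AHNAK encodes a giant scaffold protein that lies under the plasma membrane, and AHNAK2 encodes its closest relative, which is similarly built from long runs of repeats. ANXA2 is annexin A2, a protein that binds membrane phospholipids when calcium is present, and S100A10 (p11) is its small light chain. S100A10 and annexin A2 form a complex that holds AHNAK at the cell cortex, where the proteins are known for roles in membrane repair, the anchoring of channels and the activation of plasminogen at the cell surface.

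All samples were U2OS, a human osteosarcoma cell line, with a stable ER-E2F1 transgene, a fusion that 4-hydroxytamoxifen (OHT) activates. Cells received a virus with a scrambled hairpin (sh-scr) or 1 of 2 hairpin viruses, shFOXO33 and shFOXO707, each aimed at both FOXO1 and FOXO3. After 24 h they were moved to serum-free medium for 24 h, and then kept for 6 h with 20 nM OHT (OHT) or without it (con). The 14 arrays were 4 of sh-scr_con, 4 of sh-scr_OHT, 1 each of shFOXO33_con and shFOXO707_con, and 2 each of shFOXO33_OHT and shFOXO707_OHT. Every group, the scrambled controls included, carried ER-E2F1, a lentivirus and serum starvation, and no group received OHT without the transgene. No label tells whether the replicate arrays came from different cultures, and p-values then reflect only the spread of these arrays, which may be technical. In bulk RNA, fewer cells that express a gene and less of its RNA per cell cannot be told apart.

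Values are MAS5 signals, a brightness per probe set on a linear scale, and differences are on the log2(signal + 16) scale with their standard error (SE). The median signal was 137 to 143 on arrays without OHT and 115 to 120.1 on arrays with OHT. The median difference of the 12808 probe sets tested was -0.19 for OHT in scrambled cells, -0.17 for OHT under knockdown and 0.01 for knockdown without OHT. Relative to scrambled cells of the same treatment, shFOXO33 left 30.7% of the FOXO3 signal without OHT and 17.1% with it, and shFOXO707 left 60.9% and 45.1%. Of 6 osteoblast markers on the array 4 lay above the filter, with RUNX2 and IBSP below it, and 0 of 5 blood cell markers did. The 8 epithelial markers had a summed signal of 6910 to 7430 in sh-scr_con, 7348 in shFOXO33_con and 4913 in shFOXO707_con. With OHT their sum was 5260 to 5560 in sh-scr_OHT, 5952 to 6295 in shFOXO33_OHT and 3592 to 3690 in shFOXO707_OHT, with CDH1 and KRT19 among the 5 below the filter. KRT18 and KRT8 carried these sums, while EPCAM rose by 0.79 with knockdown without OHT (adjusted p = 0.00495 in limma) and by 0.44 with knockdown and OHT. KRT8 went the other way in these comparisons, at -0.43 (adjusted p = 0.0300 in limma) and -0.50 (0.00161), and KRT18 was called in neither. The 6 neural markers had a summed signal of 2850.5 to 3167 in sh-scr_con and 4630.3 to 4816 in sh-scr_OHT. NEFL was higher by 0.69 with OHT in scrambled cells, and GFAP, SYP, MAP2 and NEFM lay below the filter. OLIG2 went the other way, at -0.41 with OHT in scrambled cells (adjusted p = 0.0300 in limma) and -0.67 in knockdown cells (0.00877). The part of these markers in the results was not tested.

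To show what lies at the start of each gene, the promoter windows are printed for the AHNAK genes, which fell together, and for their annexin partners, which did not share that fall. Each window runs from 250 bases before to 50 bases after a RefSeq transcription start of build GRCh38.p14, 5′ to 3′ on the minus strand, where all 4 genes lie. AHNAK is at chr11:62545777-62546076, AHNAK2 at chr14:104978325-104978624, S100A10 at chr1:151993810-151994109 and ANXA2 at chr15:60397937-60398236. AHNAK2 has a further RefSeq start at chr14:104970458-104970757, which is not printed. Capitals mark the core bound by TEAD factors (GGAATG), the binding site of the factor NF-Y (CCAAT), an AP-1 site (TGAGTCA) and the TATA box (TATAAA), searched on both strands.
AHNAK: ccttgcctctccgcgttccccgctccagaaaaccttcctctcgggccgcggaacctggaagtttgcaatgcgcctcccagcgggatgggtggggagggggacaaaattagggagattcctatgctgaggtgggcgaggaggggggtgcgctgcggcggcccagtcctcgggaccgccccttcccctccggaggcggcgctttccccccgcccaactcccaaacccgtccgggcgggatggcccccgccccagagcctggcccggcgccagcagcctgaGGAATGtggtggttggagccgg
AHNAK2: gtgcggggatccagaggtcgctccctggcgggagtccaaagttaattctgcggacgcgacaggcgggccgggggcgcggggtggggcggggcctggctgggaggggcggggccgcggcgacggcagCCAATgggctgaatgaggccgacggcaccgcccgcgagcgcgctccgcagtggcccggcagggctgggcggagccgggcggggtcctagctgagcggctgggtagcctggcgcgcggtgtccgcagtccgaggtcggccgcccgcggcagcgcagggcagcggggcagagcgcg
S100A10: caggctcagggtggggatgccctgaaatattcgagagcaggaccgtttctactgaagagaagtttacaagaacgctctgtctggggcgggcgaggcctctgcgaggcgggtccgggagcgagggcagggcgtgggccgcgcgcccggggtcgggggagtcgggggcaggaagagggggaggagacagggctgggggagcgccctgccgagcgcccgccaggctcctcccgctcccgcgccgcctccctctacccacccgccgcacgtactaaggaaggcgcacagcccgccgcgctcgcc
ANXA2: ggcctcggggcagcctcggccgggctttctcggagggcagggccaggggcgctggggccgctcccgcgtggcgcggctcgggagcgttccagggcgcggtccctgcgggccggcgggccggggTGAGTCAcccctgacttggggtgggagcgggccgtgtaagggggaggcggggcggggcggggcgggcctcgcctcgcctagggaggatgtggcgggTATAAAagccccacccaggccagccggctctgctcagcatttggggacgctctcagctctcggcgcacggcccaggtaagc
AHNAK held 1 match of GGAATG, which 4928 of 35116 promoter windows of the same length hold. AHNAK2 held 1 CCAAT, present in 34.6% of windows. ANXA2 held 1 TGAGTCA and 1 TATAAA, present in 4.95% and 11.5% of windows. S100A10 held none of these 4 motifs. GGGCGG, bound by SP and KLF factors, was found in all 4 printed windows, 4 times in AHNAK, 6 in AHNAK2, 1 in S100A10 and 3 in ANXA2, and in 15786 of all windows; neighbouring matches in ANXA2 share a base. It is not capitalised, and the matches in capitals do not overlap one another. The E2F octamers TTTCCCGC, TTTGGCGC, TTTCGCGC and TTTGCCGC are present in 1.63%, 0.652%, 0.515% and 0.607% of all windows. The forkhead core TGTTTAC is present in 3.42% and the SRF CArG box in 1.29%. These letters were not found in the windows of the 4 genes, which says nothing of the factors that bind elsewhere.

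AHNAK was lower after OHT and lower with either hairpin, and lowest with both together. Its bright probe set (211986_at) had signals of 2068, 1871, 2125 and 1917 on the sh-scr_con arrays. The single hairpin arrays without OHT read 823 with shFOXO33 and 691 with shFOXO707. With OHT the scrambled arrays read 987, 793, 748 and 774. All 6 of these arrays lay below every sh-scr_con array. The shFOXO33_OHT arrays read 390.0 and 388, and the shFOXO707_OHT arrays 246 and 336. These 4 arrays lay below every other array of the series. In order of group means, sh-scr_con stood first at 1995 ± 121 (SD, n = 4), followed by sh-scr_OHT at 826 ± 109 (SD, n = 4) and shFOXO33_con at 823, and those last 2 could not be separated. Then came shFOXO707_con at 691, shFOXO33_OHT at 389 ± 1.49 (SD, n = 2) and shFOXO707_OHT at 291 ± 63.4 (SD, n = 2), with no overlap between neighbours.

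AHNAK2 followed the same directions, with a larger step for the hairpins and a smaller one for OHT. Its probe set (212992_at) read 873, 716, 719 and 788 on the sh-scr_con arrays. Without OHT it read 276 with shFOXO33 and 192 with shFOXO707. The scrambled arrays with OHT read 519, 471, 469.9 and 436, so the groups did not overlap. With OHT the signals were 121 and 139 for shFOXO33 and 102 and 123 for shFOXO707, below all other arrays. The group means ran from 774 ± 74.1 (SD, n = 4) in sh-scr_con through 474 ± 33.9 (SD, n = 4) in sh-scr_OHT, 276 in shFOXO33_con and 192 in shFOXO707_con. They ended at 130 ± 12.6 (SD, n = 2) in shFOXO33_OHT and 113 ± 14.6 (SD, n = 2) in shFOXO707_OHT, the only neighbours whose arrays overlapped.

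The annexin partners moved little by comparison. S100A10 (200872_at) read 11970.5, 10241, 10943 and 10184 on the sh-scr_con arrays, 11829 with shFOXO33_con and 12372 with shFOXO707_con. With OHT it read 9789, 8663, 8571 and 9964 in scrambled cells, 10455 and 11071 with shFOXO33 and 11126 and 10429.7 with shFOXO707. The hairpin arrays with OHT thus all lay above the scrambled arrays with OHT. Its highest group mean was that of shFOXO707_con and its lowest that of sh-scr_OHT, 9246 ± 732 (SD, n = 4). Between these, shFOXO33_con, sh-scr_con, shFOXO707_OHT and shFOXO33_OHT overlapped each with the next. The brightest ANXA2 probe set (201590_x_at) read 15329, 13518, 14739 and 14744 in sh-scr_con, 14500.5 in shFOXO33_con and 13009 in shFOXO707_con. With OHT it read 12380.2, 11565, 12127 and 11936 in scrambled cells, 13578 and 12663 with shFOXO33 and 12851 and 11431 with shFOXO707. Its group means spanned only 14583 ± 762 (SD, n = 4) in sh-scr_con to 12002 ± 344 (SD, n = 4) in sh-scr_OHT. In descending order sh-scr_con overlapped with shFOXO33_con, shFOXO33_OHT with shFOXO707_con, and shFOXO707_OHT with sh-scr_OHT.

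**Figure D1:**
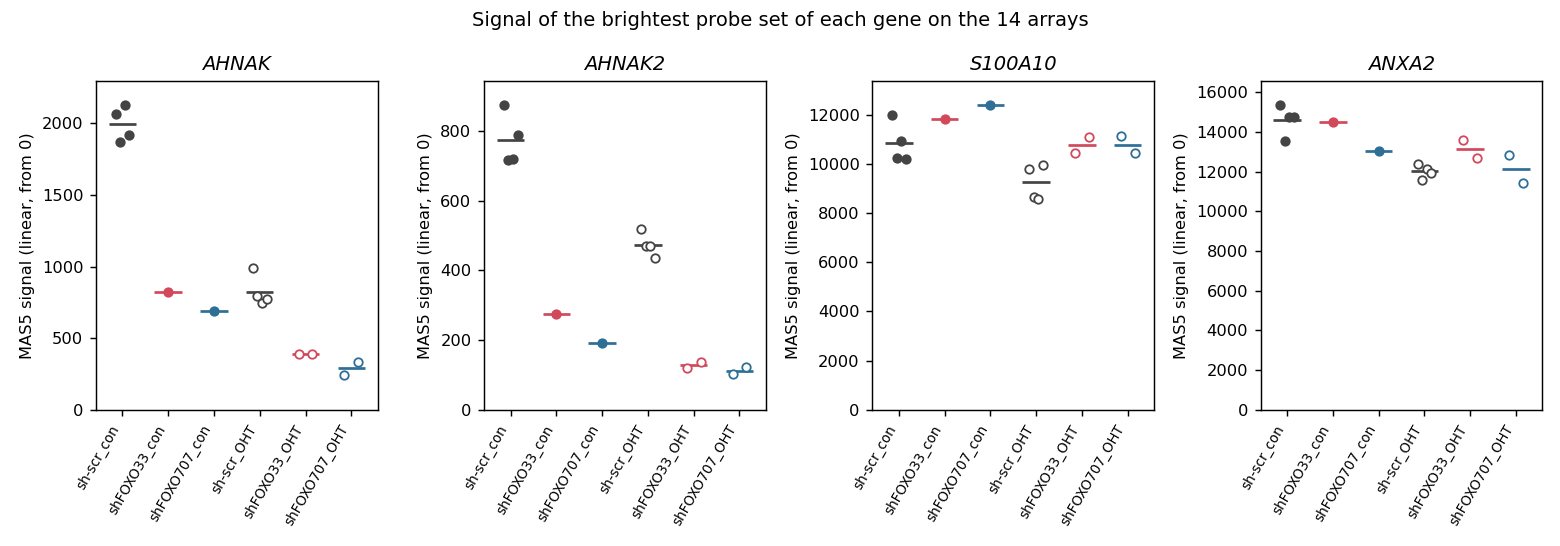
MAS5 signal (linear, from 0) of the brightest probe set of AHNAK, AHNAK2, S100A10 and ANXA2 on each of the 14 arrays, in 6 groups by virus and treatment; points are arrays (filled without OHT, open with OHT) and lines are group means. AHNAK and AHNAK2 drop from means of 1995 and 774 in sh-scr_con to 291 and 113 in shFOXO707_OHT, while S100A10 and ANXA2 stay near their starting level.

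Without OHT, where no array is shared with the comparison in which AHNAK2 was known to be low, the knockdown lowered both AHNAK genes. AHNAK2 fell by 1.68 ± 0.14 (SE) log2, or 3.19-fold, with means of 774 ± 74.1 (SD, n = 4) and 234 ± 59.4 (SD, n = 2) and an adjusted p of 1.74e-05 in limma (Benjamini-Hochberg over all probe sets tested). AHNAK fell by 1.38 ± 0.16 (SE) log2, or 2.61-fold, with mean signals of 1995 ± 121 (SD, n = 4) and 757 ± 93.3 (SD, n = 2) and an adjusted p of 0.000282. Both hairpin arrays lay below all 4 scrambled arrays for each gene, and how many of all probe sets separated likewise was not counted. Of the 8 probe sets, these 2 were called lower and 0 higher, where 2.8% of the 12808 probe sets tested were called lower and 4.02% higher. Ordered by their difference, AHNAK2 was the second lowest of the 12808 probe sets and AHNAK the eighth lowest, and 54 probe sets (0.422%) were lower by at least 2-fold. Both calls held under all 24 alternatives run, with adjusted p from 2.75e-08 to 0.000274 for AHNAK2 and from 3.90e-07 to 0.00469 for AHNAK.

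S100A10 and ANXA2 were not called in this comparison. S100A10 differed by 0.16 ± 0.08 (SE), with an adjusted p of 0.243 in limma and a 95% interval of -0.00 to 0.33. The brightest ANXA2 probe set differed by -0.08 ± 0.07 (SE), with an adjusted p of 0.534 and an interval of -0.23 to 0.06. The other ANXA2 probe sets differed by -0.09 (210427_x_at) and -0.10 (213503_x_at), with adjusted p of 0.528 and 0.440. Both intervals leave out differences as large as those of the AHNAK genes, and neither shows that the genes did not change. The probe set paired with SNU13 and ANXA2 (201077_s_at) differed by 0.01 ± 0.11 (SE), with shFOXO33_con at 3855 above and shFOXO707_con at 3333 below all sh-scr_con arrays.

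The 2 AHNAK probe sets disagreed. The dim one (220016_at), designed from the RefSeq record of the short AHNAK transcript, read 132, 136, 125 and 139 in sh-scr_con, 136 in shFOXO33_con and 116 in shFOXO707_con. With OHT it read 95.3, 84.4, 134 and 106 in scrambled cells, 107 and 93.4 with shFOXO33 and 107 and 91.0 with shFOXO707. The hairpin arrays overlapped the scrambled arrays with OHT, and shFOXO33_con did so without OHT. Knockdown without OHT changed it by -0.07 ± 0.15 (SE) log2, with an adjusted p of 0.844 in limma, against -1.38 for the bright probe set. It lay near the filter level of 79.1. Statements on AHNAK therefore rest on 211986_at alone, and those on AHNAK2 and S100A10 on 1 probe set each.

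OHT lowered both AHNAK genes in scrambled cells. This comparison shares the sh-scr_OHT arrays with knockdown with OHT, in which AHNAK2 was known to be low. AHNAK fell by 1.26 ± 0.13 (SE) log2, with an adjusted p of 1.39e-06 in limma, and AHNAK2 fell by 0.69 ± 0.12 (SE), or 1.61-fold, with an adjusted p of 0.000129. All 8 probe sets were called lower, where 43.6% of the probe sets tested were called lower and 24.5% higher. Read against the median of all probe sets, -0.19, AHNAK stood at -1.07 and AHNAK2 at -0.49. Both were called in each of the 26 alternatives, centring each array on its median included, with values between -1.35 and -1.04 for AHNAK and between -0.73 and -0.46 for AHNAK2. AHNAK was the 839th lowest of 12808 and AHNAK2 the 2739th lowest.

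S100A10 and ANXA2 fell with OHT by about as much as the median probe set. S100A10 changed by -0.23 ± 0.06 (SE), with an adjusted p of 0.00486 in limma, and the ANXA2 probe sets by -0.28, -0.26 and -0.27, with adjusted p of 0.000521, 0.00109 and 0.000652. Relative to the median they stood at -0.03 for S100A10 and between -0.09 and -0.07 for ANXA2. With each array centred on its median S100A10 was at 0.00 (adjusted p = 0.976) and 201590_x_at at -0.05 (adjusted p = 0.429), and neither was called. S100A10 also lost its call after quantile normalization (adjusted p = 0.0860). The dim AHNAK probe set 220016_at changed by -0.32 ± 0.12 (SE), with an adjusted p of 0.0327. That call was lost under 9 of 25 alternatives, with adjusted p up to 0.559. Those included leaving out replicate 1 (0.0565), 2 (0.0654) or 4 (0.0711) of sh-scr_con, or replicate 1 (0.0817), 2 (0.111) or 4 (0.0519) of sh-scr_OHT. It was also lost after either rescaling and without a filter (0.0628).

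In knockdown cells OHT lowered AHNAK further. It fell by 1.14 ± 0.16 (SE) log2, from 757 ± 93.3 (SD, n = 2) to 340 ± 67.4 (SD, n = 4), with an adjusted p of 5.01e-05 in limma. It was the 1 probe set called among the 7 tested, where 34.3% of all probe sets were called lower and 20.6% higher. S100A10 changed by -0.17 ± 0.08 (SE) with an adjusted p of 0.0759, which became 0.0466 in a fit with 6 groups. The brightest ANXA2 probe set changed by -0.12 ± 0.07 (SE) with an adjusted p of 0.143, which became 0.0100 after quantile normalization. AHNAK2 went from 234 ± 59.4 (SD, n = 2) to 121 ± 14.8 (SD, n = 4), a difference of -0.85 ± 0.14 (SE), given without a test because it uses the arrays in which AHNAK2 was known to be low. By hairpin its difference was -1.01 with shFOXO33 and -0.70 with shFOXO707, each against a single array.

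With OHT present, AHNAK2 was 3.58-fold lower in knockdown than in scrambled cells, a difference of -1.84 ± 0.12 (SE) log2, and AHNAK was 2.39-fold lower, at -1.25 ± 0.13 (SE). All 4 hairpin arrays lay below all 4 scrambled arrays for both genes. S100A10 differed by 0.22 ± 0.06 (SE), all 4 hairpin arrays lying above all 4 scrambled arrays, and 201590_x_at by 0.07 ± 0.06 (SE), with overlap. The share of all probe sets without overlap was not counted. In this comparison 7.85% of the probe sets tested were called lower and 12.5% higher, and AHNAK was the 36th lowest of 12808. The interaction, by how much the OHT difference of knockdown cells exceeds that of scrambled cells, was called for 0.289% of the probe sets tested. Given without a test, it was 0.13 ± 0.21 (SE) for AHNAK and -0.16 ± 0.18 (SE) for AHNAK2. It was 0.06 ± 0.10 (SE) for S100A10 and 0.16 ± 0.09 (SE) for 201590_x_at. The AHNAK2 value ranged from -0.41 without shFOXO707_con to 0.08 without shFOXO33_con, so its sign rests on 1 array.

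**Figure D2:**
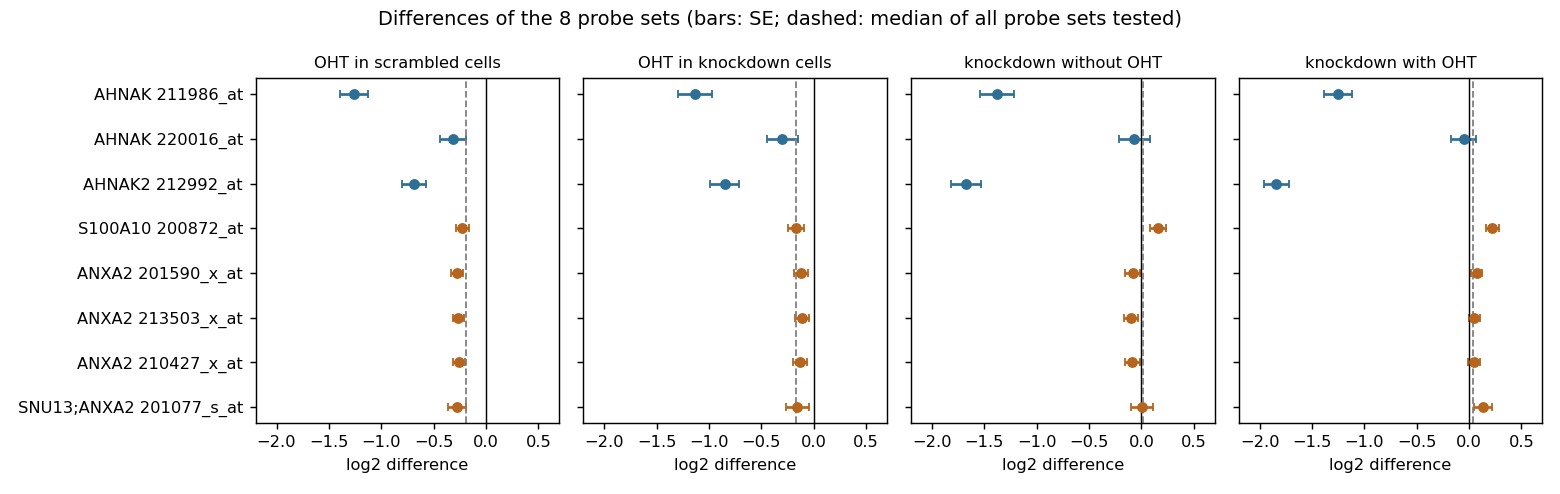
Log2 differences of the 8 probe sets in 4 comparisons, with SE as bars and a dashed line at the median of all 12808 probe sets. The bright AHNAK probe set and AHNAK2 lie between -1.84 and -0.69 in all 4 panels, while S100A10 and ANXA2 lie between -0.28 and 0.22.

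**Figure D3:**
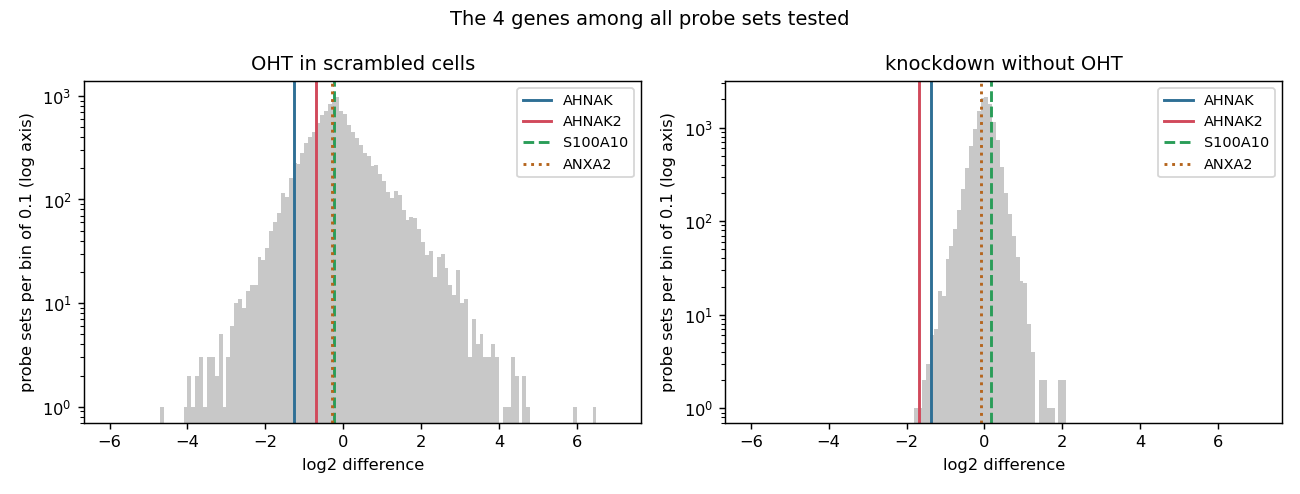
Number of probe sets (log axis) in bins of 0.1 of the log2 difference, for OHT in scrambled cells and for knockdown without OHT, with lines at the brightest probe set of each gene. AHNAK2 (-1.68) and AHNAK (-1.38) lie at the lower edge for knockdown without OHT, whereas with OHT they lie inside a wider distribution.

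The hairpins were compared with each other in the presence of OHT. AHNAK was lower with shFOXO707 than with shFOXO33, by 0.42 ± 0.13 (SE) log2, at 291 ± 63.4 (SD, n = 2) against 389 ± 1.49 (SD, n = 2), with an adjusted p of 0.0189 in limma. The call was lost without replicate 1 (adjusted p = 0.0733) or replicate 2 (0.0672) of shFOXO33_OHT and without replicate 1 of shFOXO707_OHT (0.265), where the difference was -0.20. AHNAK2 differed by -0.18 ± 0.12 (SE), with an adjusted p of 0.266. S100A10 differed by 0.00 ± 0.08 (SE) and 201590_x_at by -0.11 ± 0.06 (SE), with adjusted p of 0.988 and 0.175. The latter became 0.0430 without replicate 1 of shFOXO707_OHT, where the difference was -0.20. The probe set paired with SNU13 and ANXA2 was lower with shFOXO707 by 0.36 ± 0.05 (SE), at 2838 against 3647, with an adjusted p of 6.23e-05. So 2 of the 8 probe sets were called lower and 0 higher, where 20.7% of all probe sets were lower and 20.5% higher. The ratio of the 3' to the 5' ACTB control probe set, which rises with degraded RNA, was 1.95 to 2.04 in shFOXO707_OHT and 1.49 to 1.74 on the other arrays. For the GAPDH control the same ratio was 1.04 to 1.11 in shFOXO707_OHT and 0.98 to 1.10 on the other arrays. The part of RNA quality in this difference was not tested.

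By hairpin, the AHNAK signal without OHT was 41.3% of that in scrambled cells for shFOXO33 and 34.7% for shFOXO707, and with OHT 47.1% and 35.2%. AHNAK2 was at 35.7% and 24.8% without OHT and at 27.4% and 23.8% with OHT. Set beside the targeted genes, shFOXO707 left more of the FOXO3 signal than shFOXO33 under both treatments and less of both AHNAK genes. FOXO1 (202724_s_at) was left at 47.7% by shFOXO33 and 37.9% by shFOXO707 without OHT, and at 32.4% and 47.1% with OHT. FOXO3 read 449 in sh-scr_con, 1793 in sh-scr_OHT, 307 in shFOXO33_OHT and 810 in shFOXO707_OHT. In the same groups 202724_s_at read 103, 501, 163 and 236. For knockdown without OHT 202724_s_at was called lower, at -0.99 (adjusted p = 0.00440 in limma). FOXO3 (-1.13, 0.0825) and the other FOXO1 probe set, 202723_s_at (-0.87, 0.0688), were not called. With the hairpins pooled, their difference counts as spread, and the residual SD of FOXO3 was 0.48, against 0.10 with 6 groups. By hairpin FOXO3 differed by -1.59 with shFOXO33 and by -0.68 with shFOXO707, each a single array below all sh-scr_con arrays. Of these AHNAK and AHNAK2 values, the AHNAK difference with OHT passed the test between the hairpins and that of AHNAK2 did not, and the arrays without OHT are single.

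ANXA2 has processed pseudogenes, and probe sets ending in _x_at can share probes with similar transcripts. The ANXA2 probe sets and that of ANXA2P2 (208816_x_at) can therefore not be fully told apart. ANXA2P2 read 8265 ± 231 (SD, n = 4) in sh-scr_con, 6917 in shFOXO33_con and 6160 in shFOXO707_con, so that both hairpin arrays lay below the scrambled ones. It changed by -0.34 ± 0.08 (SE) with knockdown without OHT (adjusted p = 0.0255 in limma) and by -0.05 ± 0.07 (SE) with OHT in scrambled cells (adjusted p = 0.555). The ANXA2 probe sets showed the reverse, a call with OHT and none with knockdown, but the difference between the genes was not tested. The OHT side of this contrast depended on scaling, as 201590_x_at lost its call with arrays centred on their medians (adjusted p = 0.429 in limma). Relative to the median of all probe sets, ANXA2P2 stood at 0.15 with OHT in scrambled cells and the ANXA2 probe sets between -0.09 and -0.07. ANXA2P1 and ANXA2P3 had no call in either comparison.

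Other annexins, a family of calcium-dependent membrane-binding proteins, had 8 of 12 members measured above the filter. With OHT in scrambled cells 1 rose and 5 fell, with a median of -0.37 against -0.23 for all 7720 genes, of which 23.9% rose and 46.3% fell. After median centring 2 rose and 3 fell. ANXA1, which acts in the resolution of inflammation, fell by 0.84 ± 0.07 (SE), ANXA3 fell by 0.65 and ANXA7 by 0.51. ANXA11 rose by 0.50 ± 0.07 (SE). ANXA5, the annexin used to stain dying cells, had 7369 in sh-scr_con and 7333 in sh-scr_OHT (adjusted p = 0.904 in limma). With knockdown without OHT 1 rose and 1 fell, where 4.57% of genes rose and 2.85% fell. ANXA3 rose by 0.43 ± 0.11 (SE), from 673 to 1014 and 813, and ANXA6 fell by 0.28 ± 0.07 (SE). The ANXA3 call was lost after median centring, where 0 annexins rose. With knockdown and OHT 2 rose and 2 fell, where 14.1% of genes rose and 7.72% fell. Centring on array medians left 1 higher and 2 lower. The differences were 0.66 for ANXA3, 0.21 for ANXA1, -0.31 for ANXA4 and -0.21 for ANXA6.

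S100 proteins, small calcium sensors that bind targets as dimers, had 5 of 18 other members measured. With knockdown without OHT 0 rose and 2 fell, where 4.57% of genes rose and 2.85% fell. S100A4, linked to cell motility, fell by 0.76 ± 0.11 (SE), from 1226 in sh-scr_con to 669 in shFOXO33_con and 757 in shFOXO707_con, with an adjusted p of 0.00150 in limma. S100A6, calcyclin, fell by 0.63 ± 0.06 (SE), from 6514 to 4215 and 4180, with an adjusted p of 2.68e-05. With knockdown and OHT all 5 fell, where 7.72% of genes fell and 14.1% rose. After median centring 5 were called lower, and 4 after quantile normalization or with all probe sets of a gene averaged. The differences were -0.67 for S100A6, -0.52 for S100A4, -0.34 for S100A13, -0.22 for S100A2 and -0.18 for S100A11. The median of the 5 was -0.34 in both knockdown comparisons, against 0.02 and 0.04 for all genes. S100A10, the S100 protein of the annexin A2 complex, had values of 0.16 and 0.22 in the same comparisons. With OHT in scrambled cells 0 rose and 3 fell (S100A4 -0.66, S100A11 -0.21, S100A6 -0.16), where 23.9% of genes rose and 46.3% fell. The median of the 5 was -0.21 against -0.23 for all genes, and after median centring 1 fell.

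**Figure D4:**
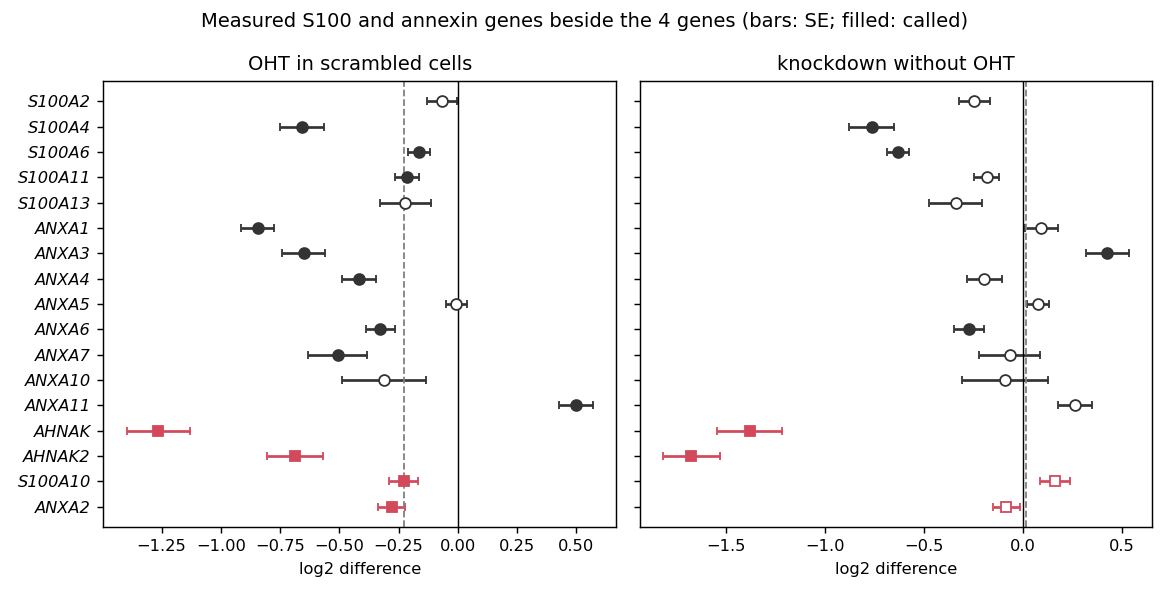
Log2 differences of the measured S100 and annexin genes (circles) and of the 4 genes (squares) for OHT in scrambled cells and for knockdown without OHT; bars are SE, filled symbols passed the test and the dashed line is the median of all genes. In the knockdown panel S100A4 (-0.76) and S100A6 (-0.63) lie between the AHNAK genes and the other S100 and annexin genes.

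Of 22 genes of plasma membrane repair 16 were measured. With OHT in scrambled cells 1 rose and 7 fell, where 23.9% of all genes rose and 46.3% fell. With arrays centred on their medians the counts were 3 and 6. STX4, a syntaxin of membrane fusion, fell by 1.36, the ESCRT component TSG101 by 1.04 and the ferlin MYOF by 1.01 log2. With knockdown without OHT 0 rose and 1 fell, where 4.57% of genes rose and 2.85% fell. The gene was TSG101, lower by 0.44 ± 0.10 (SE), with an adjusted p of 0.0207 in limma. With knockdown and OHT EHD2 (0.79) and STX4 (0.36) rose, and TSG101 (-0.56) and the calpain CAPN1 (-0.78) fell. Of these genes, the hairpins differed most in MYOF, at 262 with shFOXO33_OHT and 622 with shFOXO707_OHT.

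Among 12 genes of plasminogen activation, which the annexin A2 complex promotes at the cell surface, 8 were measured. With OHT in scrambled cells 2 rose and 4 fell, where 23.9% of genes rose and 46.3% fell. Centred on the array medians, the counts were 3 and 3. The urokinase gene PLAU (-1.72) and its receptor PLAUR (-1.34) fell most. With knockdown without OHT 0 rose and 1 fell, the cathepsin gene CTSB by 0.37, where 4.57% of genes rose and 2.85% fell. With knockdown and OHT PLAUR rose by 0.84 ± 0.20 (SE) and CTSB fell by 0.38 ± 0.07 (SE). Of 19 reported binding partners of AHNAK or S100A10, 11 were measured. With OHT in scrambled cells 4 rose and 4 fell, against 23.9% and 46.3% of all genes. Centring on array medians made this 5 and 4. Among them were SMAD3 (1.49), a mediator of TGF-beta signalling, DLC1 (-1.52), a RhoGAP, and the serotonin receptor HTR1D (-1.29). With knockdown 0 of the 11 were called in either direction, without OHT or with it, in limma, and the myosin MYO1C came nearest with OHT at -0.68 (adjusted p = 0.0570). Of all genes, 4.57% were called higher and 2.85% lower without OHT, and 14.1% and 7.72% with it. At an unadjusted p under 0.05 there were 4 binding partners without OHT and 1 with it. Of all 7720 genes, 1651 and 2788 passed that threshold. With all probe sets of a gene averaged, 10 binding partners were measured, and knockdown called 1 higher without OHT and 0 with it.

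The same lists were counted in the remaining comparisons. With OHT in knockdown cells 1 annexin rose and 5 fell, 0 S100 genes rose and 3 fell, and 1 repair gene rose and 9 fell, where 20.6% of genes rose and 37.0% fell. For plasminogen activation 1 rose and 3 fell, and for the binding partners 2 rose and 4 fell. These counts moved with the scaling: after median centring 2 annexins rose and 2 fell, 0 S100 genes rose or fell, and 3 repair genes rose and 4 fell. Likewise 3 plasminogen genes rose and 2 fell, and 5 binding partners rose and 2 fell. Between the hairpins with OHT, 21.8% of genes were higher with shFOXO707 and 21.1% lower. There 6 repair genes were higher and 5 lower, 3 plasminogen genes higher and 3 lower, and 1 binding partner higher and 5 lower. Of the annexins and of the S100 genes 1 each was higher and 1 lower, ANXA1 (0.23) and ANXA7 (-0.55), S100A13 (0.33) and S100A2 (-0.17).

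The genes whose log2 signals ran most like the members over the 14 arrays were ranked among 7720 genes by Pearson correlation. The arrays form 6 groups and share a scaling, so r mostly reads the group means and is a description. AHNAK ran most like YPEL5 (r = 0.990), LTBP2 (0.987), KLHL24 (0.981), C6orf62 (0.976) and ATP6V1C1 (0.971). AHNAK2 ran most like SCD (0.985), a fatty acid desaturase, S100A6 (0.983), SYNC (0.980), LTBP2 (0.972) and PIMREG (0.967). AHNAK stood 15th in the list of AHNAK2 and AHNAK2 stood 31st in that of AHNAK, with r = 0.947. YPEL5 went from 1916 in sh-scr_con to 1078 in sh-scr_OHT and 462 in shFOXO707_OHT. SCD went from 4324 to 3433 and 1312 in those groups, and S100A6 from 6514 to 5824 and 3576. The lowest correlations were those of CBX6 (-0.967), CDYL (-0.966) and SET (-0.966) with AHNAK, and of FSCN1 (-0.965), PRELID3B (-0.962) and CBX6 (-0.960) with AHNAK2. FSCN1, which encodes the actin-bundling protein fascin, went from 470 in sh-scr_con to 819 in sh-scr_OHT and 1887 in shFOXO707_OHT.

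The partners ran like other genes. ANXA2 ran most like the ribosomal protein genes RPS19 (r = 0.984) and RPL32 (0.972), the tubulin gene TUBA1C (0.968), RPS12 (0.953) and RPS15A (0.951), and least like B3GALNT1 (-0.940), SRSF11 (-0.939) and MAP7 (-0.929). S100A10 ran most like PSMA1 (0.927), a proteasome subunit gene, NCDN (0.910), DNASE1L1 (0.901), P2RX4 (0.898) and TOR1AIP1 (0.897), and least like SERTAD2 (-0.863), AIDA (-0.860) and TMEM123 (-0.857). Between the members, r was 0.581 for S100A10 with ANXA2, 0.003 for S100A10 with AHNAK, -0.257 for S100A10 with AHNAK2, 0.608 for ANXA2 with AHNAK and 0.403 for ANXA2 with AHNAK2.

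**Figure D5:**
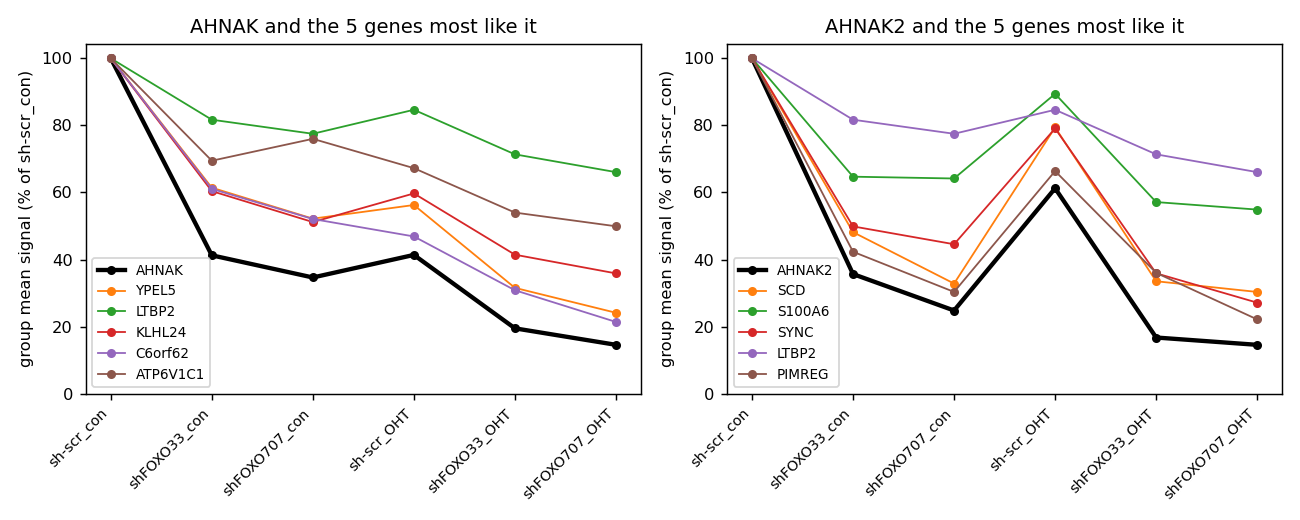
Group mean signal as a percentage of the sh-scr_con mean, for AHNAK and AHNAK2 (black) and the 5 genes whose log2 signals correlated best with each over the 14 arrays; the lines join groups only to guide the eye. AHNAK and AHNAK2 end at 14.6% in shFOXO707_OHT, below the genes most like them.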

How the data were processed

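Expression was measured on 14 Affymetrix arrays of U2OS ER-E2F1 cells, grouped by the sample titles. The authors deposited 1 linear intensity per probe set and array, a MAS5 signal per the submitters' processing notes, with no version stated there. Trimmed of 2% at each end, every array averaged 499.7 to 499.8, and these deposited intensities were not rescaled. No detection calls were used, and precision is limited by how few arrays there are.

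Of 22277 probe sets, 62 were controls. Of the rest 19064 named 1 gene, 1043 several and 2108 none, and 19052 of the 19064 were matched by Entrez ID to a RefSeq table of GRCh38.p14. Signals were taken as log2(signal + 16), which understates the change of dim genes. Probe sets above the 40th percentile of mean log2 value (6.57) were kept, 12808 in all. limma 3.58.1 in R 4.3.3 (eBayes with trend) was fitted over 4 groups with the hairpins pooled, and over 6 groups for the hairpin difference. A call is a Benjamini-Hochberg adjusted p under 0.05 over all 12808, two-sided. The fit was checked on simulated data. Genes in lists were represented by their brightest probe set naming them alone, and 7720 genes had one.

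The members and lists were chosen with earlier results of these data known. Named were all member probe sets, up to 3 called genes with the largest difference per list and comparison, the brightest annexin and S100 genes, and for each member the 5 genes most and 3 least correlated with it. Alternatives were scaling, pseudocount, filter, variance prior, grouping, single hairpins, left-out arrays and a replicate block. For the gene lists they were scaling and the average of all probe sets naming only that gene.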

Additional observations from a re-analysis of the deposited data

Results flagged for a closer look

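With OHT, 2 of the 8 probe sets differed between shFOXO707 and shFOXO33 in the test of that difference, both lower, where 20.7% of all probe sets were lower and 20.5% higher. AHNAK (211986_at) was lower with shFOXO707 than with shFOXO33, at -0.42 log2, both of its arrays lying below both shFOXO33 arrays. In limma this call was lost without replicate 1 (adjusted p = 0.0733) or 2 (0.0672) of shFOXO33_OHT and without replicate 1 of shFOXO707_OHT (0.265, at -0.20). The probe set paired with SNU13 and ANXA2 (201077_s_at) stood at -0.36. The 3 probe sets naming ANXA2 alone stood between -0.11 and -0.09 and were not called, but a fit with a replicate block called all 3 (adjusted p = 0.0196, 0.0346 and 0.0314).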

How the results depend on the processing

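For AHNAK and AHNAK2 the direction and the call held under all alternatives run for knockdown without OHT and for OHT in scrambled cells. S100A10 and ANXA2 depended on scaling. With each array centred on its median, OHT in scrambled cells gave 0.00 for S100A10 (-0.0022) and -0.0532 for ANXA2, and in knockdown cells 0.0575 and 0.10, a turned sign; the other ANXA2 probe sets turned to 0.0955 and 0.11, and the SNU13 and ANXA2 probe set to 0.0704. Quantile normalization gave -0.15 for S100A10 in scrambled cells, and for ANXA2 -0.10 with OHT in knockdown cells, -0.0214 for knockdown with OHT and 0.0457 for the interaction; the hairpin difference of 210427_x_at and 213503_x_at turned to 0.0049 and 0.0179. A fit with 6 groups gave S100A10 a call at -0.17 with OHT in knockdown cells. With median centring the higher share of calls for OHT in scrambled cells moved from 36.0% to 54.3%, and for knockdown without OHT from 58.9% to 48.3%. For OHT in knockdown cells it moved from 37.6% to 59.4%, and the cause was not tested.

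For AHNAK, knockdown with OHT was -1.05 with only shFOXO33 and -1.46 with only shFOXO707. For AHNAK2 it was -1.54 with pseudocount 64, and OHT in knockdown cells was -0.63 with each array centred, -0.63 after quantile normalization and -0.68 with pseudocount 64. Leaving out 1 array gave AHNAK2 -1.10 to -0.61 for OHT in knockdown cells and -0.41 to 0.0804 for the interaction. The hairpin difference then ran from -0.63 to -0.20 for AHNAK, -0.0447 to 0.0484 for S100A10 and -0.20 to -0.0290 for ANXA2. Knockdown without OHT turned to -0.0244 with median centring and to -0.10 with only shFOXO707 for the SNU13 and ANXA2 probe set (left-out arrays -0.10 to 0.11), and to 0.0311 with only shFOXO33 for AHNAK 220016_at (-0.17 to 0.0311). Left-out arrays turned the hairpin difference of 220016_at (-0.12 to 0.0800) and of 210427_x_at (-0.20 to 0.0063).

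Knockdown without OHT called 874 probe sets, and 3629 with 6 groups, 3549 with only shFOXO33 and 3115 with only shFOXO707. Knockdown with OHT called 2610, against 5613, 5972 and 4876, and the interaction 37, against 988, 662 and 540, or 7 to 82 with 1 array left out.

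Same-numbered arrays of different groups correlated in their deviations from group means at r from -0.06 to 0.07, and differently numbered arrays at -0.09 to 0.09. In a group of 2 arrays these deviations are opposites, so its values mirror each other and the 2 ranges cannot decide on pairing. Between sh-scr_con and sh-scr_OHT, with 4 arrays each, same-numbered arrays had r from -0.004 to 0.048. Whether the replicate numbers in the titles pair the arrays for single genes was not tested. The 3 ANXA2 probe sets read higher on replicate 1 than on replicate 2 in every group with replicates. For 201590_x_at these signals were 15329 and 13518 in sh-scr_con and 12380 and 11565 in sh-scr_OHT. They were 13578 and 12663 in shFOXO33_OHT and 12851 and 11431 in shFOXO707_OHT. The other member probe sets did not keep this order in every group. With the replicate block over the 12 numbered arrays, knockdown with OHT called 1501 probe sets, against 3066 for those arrays without the block, a fit added after the data were seen. The block gave a hairpin difference of -0.11 for ANXA2 (adjusted p = 0.0196), also called 210427_x_at (0.0346) and 213503_x_at (0.0314), and changed no call of AHNAK, AHNAK2 or S100A10.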
